A study of Mus musculus with 12 samples.

Results

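Csf1, Osm, Tgfb1 and Vegfa are 4 genes for secreted proteins that act on other cells, and their RNA was followed across sorted mouse neutrophils with and without granulocyte colony-stimulating factor (G-CSF). They are 4 of the 13935 genes in the deposited table and were taken by gene symbol. They were chosen with their levels in all 4 groups known, so their levels and differences are given here as a description, without a test. The cells were neutrophils sorted from the bone marrow of the femur by CD45, CD11b and Ly6G, and kept for 8 h without or with 10 ng/ml G-CSF before total RNA was sequenced. The 4 groups of 3 libraries were Socs3fl/fl without G-CSF, LysMcre Socs3fl/fl without G-CSF, Socs3fl/fl with G-CSF, and LysMcre with G-CSF, and are called floxed and LysMcre-labelled below. All groups carry loxP sites around Socs3, the gene for a feedback inhibitor of cytokine receptor signalling. In the LysMcre groups Cre is expressed from the Lyz2 locus, which is active in neutrophils and also in monocytes and macrophages. For the 3 LysMcre-labelled libraries with G-CSF the titles contradict themselves, since they also say untreated and leave out Socs3fl/fl, and the description was used to place them. The age of the mice is not given in the sources used here.

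As background, Csf1 encodes macrophage colony-stimulating factor, the growth factor that keeps monocytes and macrophages alive through the receptor CSF1R. Osm encodes oncostatin M, a cytokine of the interleukin-6 family that signals through gp130 (Il6st) and a partner chain. OSMR and LIFR are the partner chains described across species, and their use by mouse OSM was not measured here. Tgfb1 encodes transforming growth factor beta 1, which is cleaved by furin, stored in a latent complex and set free by integrins or thrombospondin. Vegfa encodes the vascular endothelial growth factor that drives vessel growth through KDR, with FLT1 and the neuropilins as further receptors, and is a classic target of the hypoxia-inducible factors. In bone marrow, G-CSF acts on neutrophils through CSF3R, JAK2 and STAT3, and SOCS3 binds the activated receptor and limits this signal.

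Values are the deposited normalized counts, that is reads divided by 1 size factor per library, and group values are means ± SD over 3 libraries. Summed over the genes of the deposited table, the reads recovered per library came to 19495754 to 26472118. At this depth 3 reads correspond to 2.57 to 3.54 normalized counts. All 10 neutrophil markers examined were in the table, with summed levels of 1183353 to 1884407 per library. Socs3 RNA was not lower in the LysMcre-labelled libraries: it stood at 225 ± 23.1 in floxed and 292 ± 34.5 in LysMcre-labelled cells without G-CSF, and at 19504 ± 1635 and 37335 ± 1219 with it. The RNA therefore does not check the deletion, and every direction below is drawn between libraries as labelled. Lyz2, the locus that carries Cre, stood at 222593 ± 3235 in floxed and 6053 ± 493 in LysMcre-labelled cells without G-CSF. With G-CSF it stood at 46227 ± 2464 and 569 ± 64.8. Lyz2 RNA thus separated the LysMcre label in both treatments, including the 3 libraries placed by their description, but does not show the deletion of Socs3. Whether the replicates were separate mice is not stated in the labels, and p-values then describe only how these libraries vary, which may be technical variation.

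In the mm10 build, whose positions were taken from the GENCODE M21 annotation, the 4 genes are protein coding and no other annotated gene overlaps them. Csf1 (ENSMUSG00000014599.10) lies on the minus strand at chr3:107741048-107760469. Osm (ENSMUSG00000058755.3) lies on the plus strand at chr11:4236420-4241026. Tgfb1 (ENSMUSG00000002603.15) lies on the plus strand at chr7:25687002-25705077, and Vegfa (ENSMUSG00000023951.17) on the minus strand at chr17:46016993-46032369. RefSeq promoter windows of GRCm38.p6 (the same build) were matched for 3 of the 4 genes, Csf1, Tgfb1 and Vegfa. They are shown because the RNA of these genes differed with G-CSF in different directions, and the 250 bases before each start can be set beside each other. The windows are chr3:107760470-107760719 on the minus strand for Csf1, chr7:25686752-25687001 on the plus strand for Tgfb1, and chr17:46032378-46032627 on the minus strand for Vegfa, each written 5′ to 3′ towards the gene. Capitals mark the match to the NF-kappaB consensus.
Csf1: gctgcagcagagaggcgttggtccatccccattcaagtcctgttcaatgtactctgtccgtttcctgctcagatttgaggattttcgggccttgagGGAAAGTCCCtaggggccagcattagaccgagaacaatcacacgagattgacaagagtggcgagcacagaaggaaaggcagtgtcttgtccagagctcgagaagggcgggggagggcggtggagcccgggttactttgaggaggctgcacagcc
Tgfb1: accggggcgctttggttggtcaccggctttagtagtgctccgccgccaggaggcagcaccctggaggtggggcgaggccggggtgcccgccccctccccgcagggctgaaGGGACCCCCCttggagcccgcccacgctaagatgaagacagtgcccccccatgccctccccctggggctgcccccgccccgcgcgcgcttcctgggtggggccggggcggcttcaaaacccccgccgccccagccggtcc
Vegfa: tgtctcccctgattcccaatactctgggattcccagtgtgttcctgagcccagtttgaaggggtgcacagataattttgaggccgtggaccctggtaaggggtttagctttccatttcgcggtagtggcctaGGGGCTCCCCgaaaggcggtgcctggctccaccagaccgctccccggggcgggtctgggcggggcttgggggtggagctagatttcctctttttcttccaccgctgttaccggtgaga
Each of the 3 windows held 1 match to the NF-kappaB consensus on either strand, with its first base at −154 (Csf1), −140 (Tgfb1) and −118 (Vegfa) from the transcription start. Of all 32851 RefSeq windows of this length, 7.25% held such a match. The STAT letters TTCNNNGAA (7.02% of windows), the hypoxia response core ACGTG (16.6%) and the AP-1 letters TGANTCA (6.75%), searched on both strands, had no match in these 3 windows. A further RefSeq start of Vegfa lies inside the gene, and the 250 bases before it, chr17:46025164-46025413, are not printed. They held 1 match to the hypoxia response core, with its first base at −211, and none to the NF-kappaB, STAT or AP-1 letters. The Tgfb1 window held 21 CG dinucleotides, the Vegfa window 11 and the Csf1 window 10, against a median of 6 over all windows. A match describes the letters only, and binding was not measured.

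**Figure D1:**
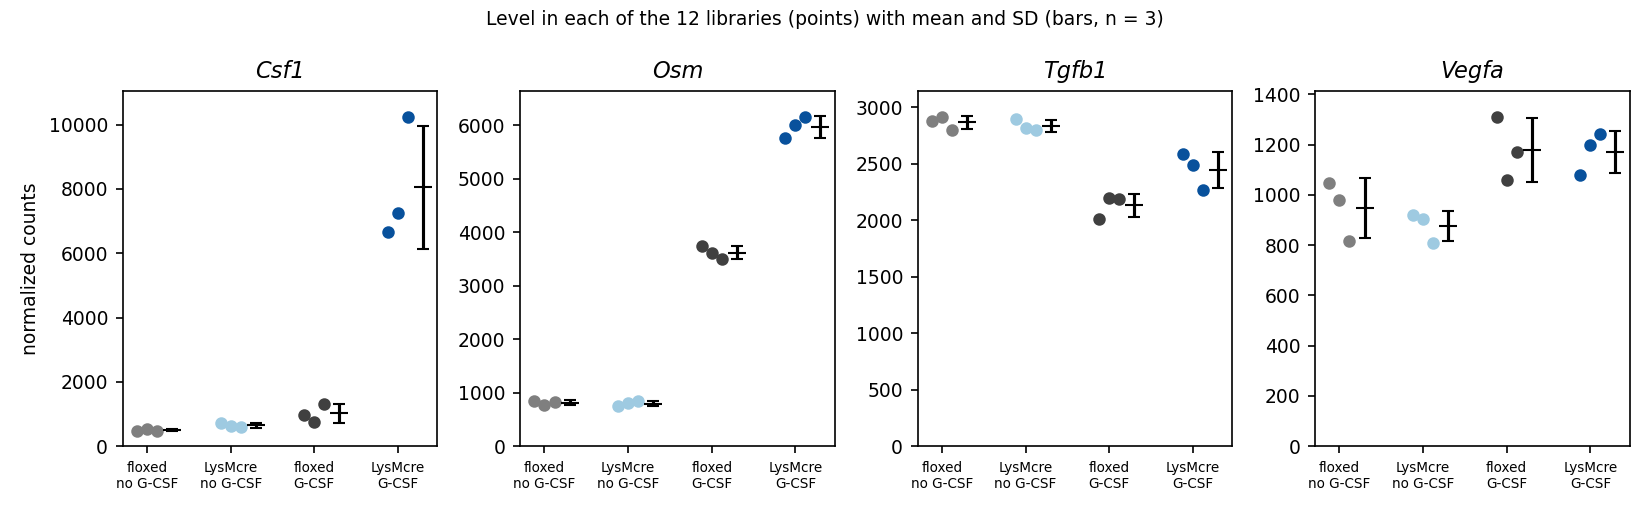
Normalized counts of Csf1, Osm, Tgfb1 and Vegfa (y axes from 0, 1 panel per gene) in each of the 12 libraries, by group on the x axis; points are libraries and the bar is the group mean with its SD. Csf1 reached 10244 in 1 LysMcre-labelled G-CSF library against at most 1324 in floxed G-CSF libraries, while the G-CSF groups of Vegfa lie on top of each other.

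Csf1 was the member that differed most between genotypes, and the difference was seen mainly in the presence of G-CSF. Without G-CSF its level was 477, 530.3 and 472 normalized counts in the floxed libraries and 713, 639 and 580.3 in the LysMcre-labelled libraries. Treated cells had 972, 748 and 1324 in the floxed libraries and 6676, 7258 and 10244 in the LysMcre-labelled libraries. The 4 groups did not overlap, and every LysMcre-labelled library was above every floxed library of the same treatment. The group levels were 493 ± 32.0, 644 ± 66.5, 1014 ± 290.4 and 8059 ± 1915 in that order. With G-CSF the LysMcre-labelled mean was 7.94-fold the floxed mean, a log2 difference of 3.00 (SE 0.17) that was the 9th highest of 13915 genes. Without G-CSF the ratio was 1.31, a log2 difference of 0.38. G-CSF went with a 2.06-fold level in floxed cells and a 12.5-fold level in LysMcre-labelled cells, so the response was larger by 2.62 (SE 0.25) on the log2 scale in the LysMcre-labelled cells, the 22nd highest such value. Bulk RNA cannot tell more cells of a type from more RNA per cell.

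Csf1 also had the largest spread between libraries of the 4 genes. Its SD was 28.6% of the mean in the floxed and 23.8% in the LysMcre-labelled G-CSF libraries, while counting error was 1.02 to 4.72% per library. The spread within groups was 0.28 on the log2 scale, larger than that of 98.6% of the 1383 genes within 1.5-fold of its mean level, whose median was 0.08. Replicate 3 was the highest Csf1 library in both G-CSF groups. The log2 difference between genotypes with G-CSF ranged from 2.80 to 3.21 over all processing alternatives, including the leaving out of each library.

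Osm had the highest level per length of the 4 genes in the presence of G-CSF, and its replicates lay close together. In untreated cells its normalized counts were 844, 761 and 831 in the floxed and 752, 798 and 834 in the LysMcre-labelled libraries. In treated cells they were 3743, 3613 and 3494 in the floxed and 5756, 6009 and 6158 in the LysMcre-labelled libraries. The untreated groups overlapped, and the other groups were apart from them and from each other. The means were 812 ± 44.9, 794 ± 41.0, 3617 ± 124 and 5974 ± 204. The G-CSF level was 4.45-fold the untreated level in floxed cells, the 301st highest log2 difference of all genes (2.15, SE 0.06), and 7.52-fold in LysMcre-labelled cells (2.91, SE 0.06). Between genotypes the ratio was 1.65 with G-CSF (log2 difference 0.72, SE 0.06) and 0.978 without it. The G-CSF difference was larger in LysMcre-labelled cells by 0.76 (SE 0.08) on the log2 scale.

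Tgfb1 went the other way, with a lower level in both G-CSF groups. Untreated libraries had 2879.8, 2917 and 2804 normalized counts when floxed and 2896, 2819 and 2799 when LysMcre-labelled, and these groups overlapped. Treated libraries had 2013, 2196 and 2189 when floxed and 2585, 2486 and 2272 when LysMcre-labelled. All 6 G-CSF libraries lay below all 6 untreated libraries, and the lowest LysMcre-labelled G-CSF library (2272) was just above the highest floxed one (2196). The means were 2867 ± 57.7, 2838 ± 51.4, 2133 ± 104 and 2448 ± 160.3. The ratio of G-CSF to untreated was 0.744 in floxed cells (log2 difference −0.43, SE 0.06) and 0.862 in LysMcre-labelled cells (−0.22, SE 0.06). Between genotypes with G-CSF the ratio was 1.15 (log2 difference 0.20, SE 0.06). When libraries were scaled to equal totals instead, this genotype difference was 0.08 and the groups overlapped, while the G-CSF differences were −0.52 and −0.48. Under that scaling the median gene moved to −0.13 between genotypes with G-CSF, and relative to it the Tgfb1 difference was 0.21 under both scalings. Rescaling a library moves all its genes alike, so this likeness follows from the method. It does not tell which scaling is right.

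Vegfa was slightly higher in the G-CSF groups, and its genotypes overlapped in both treatments. Untreated floxed libraries had 1048, 980.0 and 817 normalized counts and untreated LysMcre-labelled libraries 918, 903 and 807. Treated floxed libraries had 1311, 1058 and 1170.3 and treated LysMcre-labelled libraries 1079, 1197 and 1241. The lowest G-CSF library (1058) was just above the highest untreated library (1048). The means were 948 ± 119, 876 ± 60.5, 1179.6 ± 127 and 1173 ± 83.6. The G-CSF level was 1.24-fold the untreated level in floxed cells (log2 difference 0.32, SE 0.10) and 1.34-fold in LysMcre-labelled cells (0.42, SE 0.10), and these differences differed by 0.10 (SE 0.14). Between genotypes the log2 difference was −0.11 (SE 0.10) without G-CSF and −0.01 (SE 0.10) with it. Under equal totals the G-CSF differences were 0.22 and 0.16 and the groups overlapped. The median gene then stood at −0.09 and −0.26, and relative to it Vegfa was at 0.31 and 0.42, as with the deposited scaling. These relative values are nearly fixed when whole libraries are rescaled, and so do not tell which scaling is right.

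**Figure D2:**
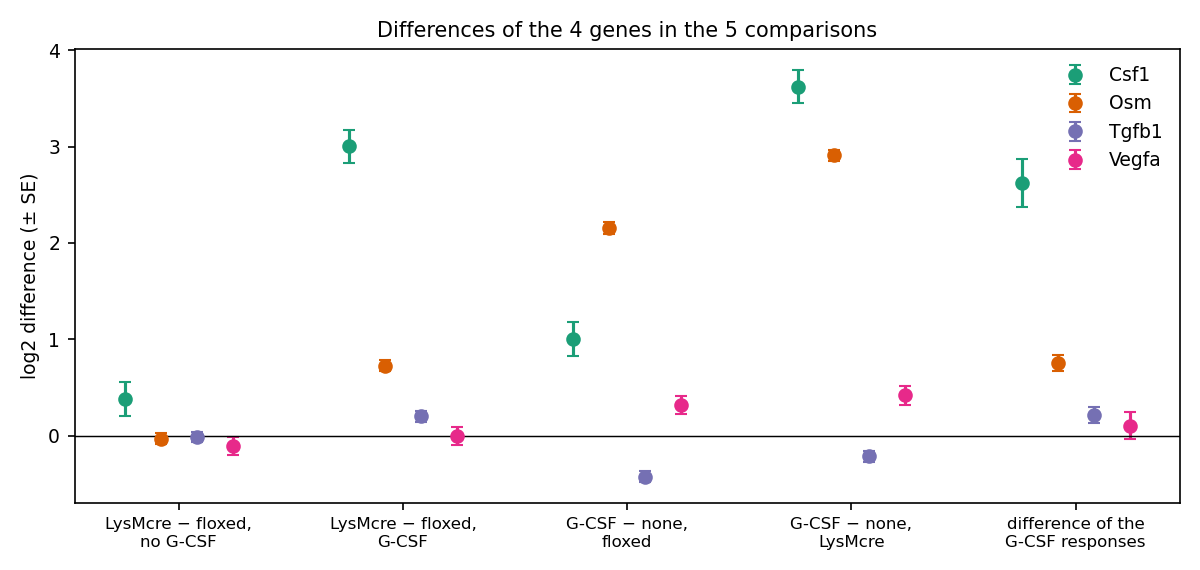
Log2 differences (y axis, error bars 1 SE) of the 4 genes in the 4 comparisons and in the difference of the G-CSF responses (x axis). Csf1 lies farthest from 0 in both genotype comparisons (0.38 and 3.00), Osm with G-CSF in floxed cells (2.15), and Tgfb1 is the gene below 0 with G-CSF in both genotypes (−0.43 and −0.22).

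Set beside each other, the genotype groups without G-CSF were apart for 1 of the 4 genes, Csf1, which was higher in LysMcre-labelled cells; 3.93% of all genes were apart in that direction. With G-CSF, 3 of the 4 genes (Csf1, Osm and Tgfb1) were apart and higher in LysMcre-labelled cells, against 22.4% of all genes. In floxed cells G-CSF set 3 genes apart as higher (Csf1, Osm and Vegfa; 27.5% of all genes) and Tgfb1 as lower (28.6%). In LysMcre-labelled cells the same directions held for the 4 genes, against 33.6% higher and 34% lower of all genes. The genes were chosen on these contrasts, so nothing is read from their counts, and the comparisons share libraries.

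Divided by the summed exon length of each gene, the order of the 4 genes changed with G-CSF. Per kilobase, floxed untreated cells had 569 ± 11.5 normalized counts of Tgfb1, 357 ± 19.7 of Osm, 221 ± 27.7 of Vegfa and 93.4 ± 6.06 of Csf1. None of these neighbours overlapped, and the order in LysMcre-labelled untreated cells was the same. With G-CSF, floxed cells had 1592 ± 54.8 of Osm, 423 ± 20.6 of Tgfb1, 275 ± 29.6 of Vegfa and 192 ± 55.0 of Csf1, where the highest Csf1 library (251) was above the lowest Vegfa library (247). LysMcre-labelled cells with G-CSF had 2629.6 ± 89.6 of Osm, 1526 ± 363 of Csf1, 485 ± 31.8 of Tgfb1 and 274 ± 19.5 of Vegfa. Csf1 was thus the lowest of the 4 in 3 groups and the second in the fourth. Of the summed level per kilobase of the 4 genes, Tgfb1 made up 45.8% in floxed untreated cells and 9.96% in LysMcre-labelled cells with G-CSF, and Csf1 7.53% and 30.8%.

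**Figure D3:**
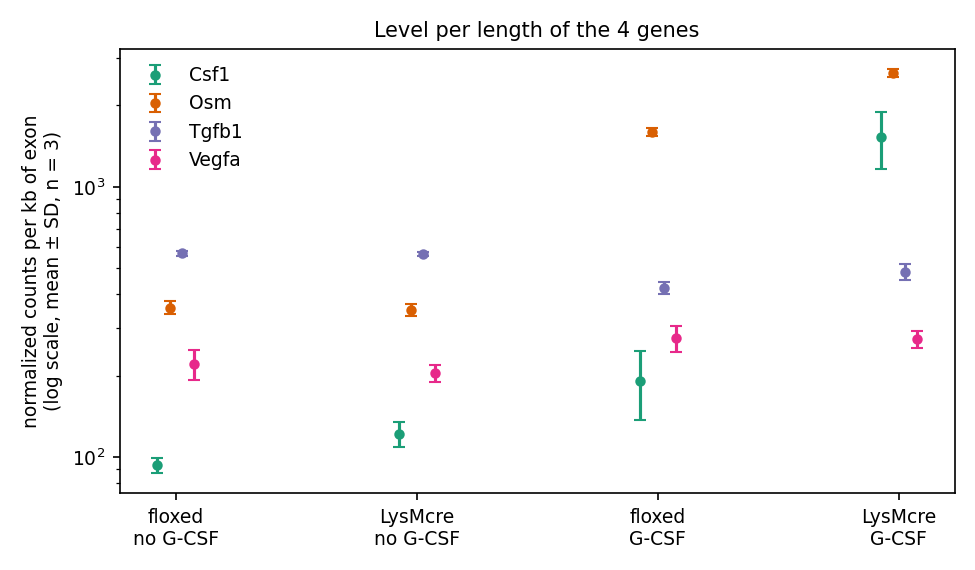
Normalized counts per kilobase of summed exon length (log10 y axis) of the 4 genes in the 4 groups (x axis); points are means and bars the SD over 3 libraries. Tgfb1 is at the top in both untreated groups (569 in floxed cells), Osm in both G-CSF groups, and Csf1 moves from the bottom to the second place in LysMcre-labelled cells with G-CSF (1526).

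The lists of related genes were tested with limma over 13915 genes, with Benjamini-Hochberg adjusted p-values and a threshold of 0.05. Of 112 listed genes, 90 were measured. The lists were chosen with earlier results of these data known, so their counts beside the shares of all genes are a description. Between genotypes without G-CSF, 0 of the 90 passed (0.115% of all genes passed); 5 had an unadjusted p under 0.05, namely Socs3, Nrp2, Tgfbr2, Pdk1 and Ankrd37, and edgeR and DESeq2 called 0 as well, with 5 and 4 at an unadjusted p under 0.05. Between genotypes with G-CSF, 37 were higher and 12 lower in LysMcre-labelled cells, against 17.1% and 18.9% of all genes, and under equal totals 34 and 21. G-CSF raised 35 and lowered 25 in floxed cells (24.1% and 24.6% of all genes), and raised 44 and lowered 22 in LysMcre-labelled cells (31.1% and 31.6%; 35 and 31 under equal totals). The G-CSF response differed between genotypes for 38 genes, 33 upwards and 5 downwards (10.9% and 11.5% of all genes), and under equal totals for 21 and 14. Here and below, the shares of all genes are given for the deposited scaling only. Under equal totals the median gene stood at −0.13 between genotypes with G-CSF and −0.26 with G-CSF in LysMcre-labelled cells. For the difference of the responses it stood at −0.18. Counts under equal totals are therefore not to be set against these shares.

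**Figure D4:**
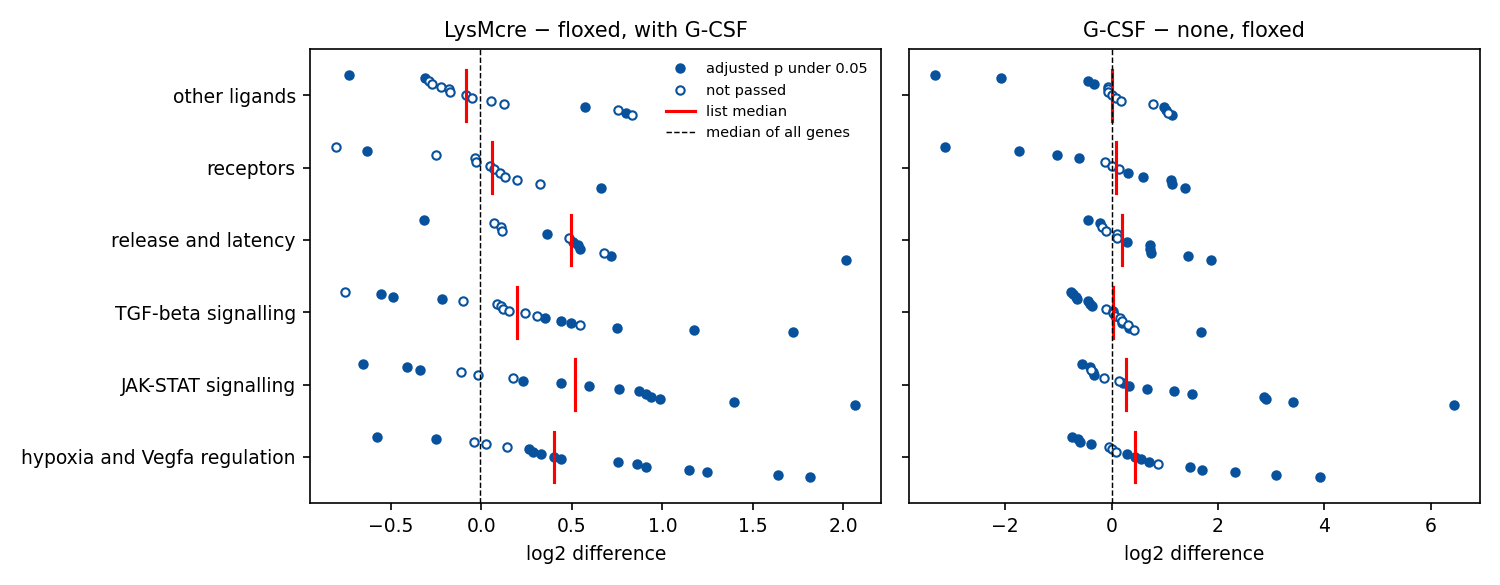
Log2 difference (x axes) between genotypes with G-CSF (left) and with G-CSF in floxed cells (right) for each measured gene of the 6 lists (y axis); filled points passed the limma threshold, red bars are list medians and the dashed line is the median of all genes. On the left 12 of 17 genes of the hypoxia and Vegfa regulation list were called higher (17.1% of all genes). Thbs1 (2.01) is the farthest point of the release and latency list.

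The receptors of the 4 proteins did not move as a block. Of 12 measured, 5 rose and 4 fell with G-CSF in floxed cells (24.1% and 24.6% of all genes). In LysMcre-labelled cells 3 rose and 3 fell (31.1% and 31.6% of all genes), and 2 and 6 under equal totals. Between genotypes with G-CSF 1 was higher and 1 lower (17.1% and 18.9% of all genes). The median log2 difference was 0.06, against −0.01 for all genes. Without floxed G-CSF replicate 3 the 5 that rose in floxed cells were 3, and without LysMcre-labelled untreated replicate 3 the 1 lower between genotypes became 2. Osmr and Flt4 are not analysed here. Csf1r, the CSF1 receptor, stood at 6009 ± 731, 6452 ± 1239, 7473 ± 538 and 6286 ± 475 in floxed untreated, LysMcre-labelled untreated, floxed G-CSF and LysMcre-labelled G-CSF cells. Its rise in floxed cells (log2 difference 0.32, adjusted p = 0.0398) was lost in edgeR (0.0517), under equal totals (0.192) and quantile normalization (0.333). It was also lost without floxed untreated replicate 1 (0.0747) or 3 (0.17), floxed G-CSF replicate 2 (0.112) or 3 (0.116), or LysMcre-labelled G-CSF replicate 2 (0.052). Il6st, the shared gp130 chain that OSM needs, rose with G-CSF from 399 ± 113 to 860.0 ± 126 in floxed cells (limma adjusted p = 0.000217) and from 484 ± 147 to 1069 ± 70.4 in LysMcre-labelled cells (9.18e-05). Lifr, a partner chain described beside OSMR, was low. It rose in floxed cells from 62.8 ± 5.73 to 94.7 ± 4.76 (limma adjusted p = 0.00462). In LysMcre-labelled cells it stood at 77.0 ± 11.6 without and 60.9 ± 6.33 with G-CSF (0.0739). The responses of Lifr differed by −0.91 (SE 0.21, adjusted p = 0.00604).

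Among the TGF-beta receptors, Tgfbr2, the ligand-binding chain, was higher in LysMcre-labelled than in floxed cells with G-CSF, at 3939 ± 326 against 2487 ± 82.9 (log2 difference 0.66, SE 0.09, adjusted p = 2.91e-05). Without G-CSF it stood at 2877 ± 403 and 2468 ± 157. The difference between its responses (0.45, adjusted p = 0.0179) did not pass under quantile normalization (0.0609) or equal totals (0.113). Tgfbr1, the signalling chain, stood at 1911 ± 80.4, 1848 ± 37.0, 1749 ± 80.3 and 1812 ± 174 in the order of groups given for Csf1r and passed in no contrast, and neither did the co-receptor Eng, at 111 to 129.9. Acvrl1, a type I receptor, fell with G-CSF in floxed cells (5463 ± 259 to 3618 normalized counts, adjusted p = 0.000964), and the co-receptor Tgfbr3 fell in both genotypes at levels of 51.0 and below.

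Among the VEGF receptors, the neuropilins moved in opposite directions with G-CSF. Nrp1 fell from 634 ± 33.9 to 192 ± 41.3 in floxed cells (limma adjusted p = 2.84e-08) and from 569.7 ± 6.12 to 185 ± 21.3 in LysMcre-labelled cells (3.34e-08). Nrp2 rose from 124 ± 22.2 to 269 ± 37.4 (1.61e-05) and from 96.1 ± 17.2 to 307 ± 4.15 (1.01e-07). Flt1 fell from 67.2 ± 8.53 to 6.79 ± 1.33 in floxed cells and from 53.5 ± 20.8 to 8.55 ± 5.50 in LysMcre-labelled cells, close to the 2.57 to 3.54 that 3 reads are worth. Kdr, the main signalling receptor, was near the lower end of the table, at 14.6 ± 6.77 and 39.2 ± 16.6 in floxed cells without and with G-CSF (limma adjusted p = 0.0203) and at 15.9 ± 7.85 and 21.0 ± 5.97 in LysMcre-labelled cells. The Kdr call was lost without floxed untreated replicate 2 (adjusted p = 0.107) or floxed G-CSF replicate 1 (0.0701) or 3 (0.0896).

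Other secreted ligands changed in both directions. Of 15 measured of 30 listed, G-CSF raised 3 and lowered 4 in floxed cells (24.1% and 24.6% of all genes). It raised 5 and lowered 5 in LysMcre-labelled cells (31.1% and 31.6% of all genes). Between genotypes with G-CSF 2 were higher and 2 lower (17.1% and 18.9% of all genes), and 1 and 6 under equal totals. Without LysMcre-labelled G-CSF replicate 2 the 5 raised genes were 3. Between genotypes the 2 higher genes were 1 without floxed G-CSF replicate 1 or 2, or LysMcre-labelled G-CSF replicate 2 or 3. Tnfsf13b, which encodes the B cell survival factor BAFF, fell from 1569 to 157 in floxed cells and from 1524 to 170.2 in LysMcre-labelled cells (limma adjusted p = 1.28e-12 and 7.75e-13). Hgf, the hepatocyte growth factor gene, fell from 944 ± 98.8 to 223 ± 13.2 in floxed and from 984 ± 53.2 to 134 ± 12.2 in LysMcre-labelled cells, and was lower in the latter with G-CSF by 0.73 (SE 0.09, adjusted p = 1.85e-05) on the log2 scale. Il27, a subunit of an interleukin-12 family cytokine, was higher in LysMcre-labelled cells with G-CSF, at 879.7 against 506 (adjusted p = 2.57e-05). Its partner subunit Ebi3 was lower, at 1352 against 1685 (0.00179). Inhba, the activin A subunit, rose with G-CSF from 268 to 595 in floxed cells and from 249.8 to 485 in LysMcre-labelled cells (adjusted p = 1.03e-05 and 3.71e-05).

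Of 12 measured genes that release the proteins or hold TGF-beta latent, 6 were higher and 1 lower in LysMcre-labelled cells with G-CSF. The median log2 difference was 0.49 (all genes −0.01), and 17.1% of all genes were higher and 18.9% lower. Of the 12, 5 responded more strongly upwards to G-CSF in LysMcre-labelled cells (10.9% of all genes). The 1 lower gene, the gelatinase gene Mmp9, was not called without floxed G-CSF replicate 1 or 2 or LysMcre-labelled G-CSF replicate 1, which left 0. Thbs1, encoding thrombospondin 1, an activator of latent TGF-beta, stood at 9738, 10506 and 12753 normalized counts in the floxed and 36895, 48963 and 47586 in the LysMcre-labelled G-CSF libraries (log2 difference 2.01, SE 0.15, adjusted p = 7.20e-08). Its untreated levels were 10337 ± 2117 and 10758 ± 1703. Nrros, which tethers latent TGF-beta to the surface of myeloid cells, rose from 1855 ± 106 to 5043 ± 181 in floxed and from 1884 ± 149 to 8327 ± 925 in LysMcre-labelled cells (limma adjusted p = 5.41e-10 and 2.16e-12). Furin, the convertase that cleaves the TGF-beta precursor, stood at 13863 and 19678 with G-CSF in floxed and LysMcre-labelled cells (adjusted p = 0.000149), from 8386 and 8366 without it. Adam17, a sheddase that releases membrane-bound growth factors, CSF1 among them, stood at 2285 and 3314 with G-CSF (2.60e-06). Rhbdf2, which brings ADAM17 to the surface, stood at 7971 and 10238 (0.0039).

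Of 18 TGF-beta signalling genes, G-CSF raised 3 and lowered 7 in floxed cells (24.1% and 24.6% of all genes). It raised 7 and lowered 6 in LysMcre-labelled cells (31.1% and 31.6% of all genes), and 3 and 6 under equal totals. Between genotypes with G-CSF 6 were higher and 3 lower (17.1% and 18.9% of all genes), with a median log2 difference of 0.19. Id1, a target of the BMP branch of the family and an inhibitor of basic helix-loop-helix factors, rose from 321 ± 27.6 to 1031 ± 67.2 in floxed and from 344 ± 29.9 to 3399 ± 218 in LysMcre-labelled cells (limma adjusted p = 2.30e-10 and 4.19e-14). Klf10, a TGF-beta early response gene, fell from 1086 to 659 in floxed cells (adjusted p = 0.000168), and with G-CSF it was higher in LysMcre-labelled cells, at 1499.9 (2.70e-06). Smad3, a receptor-activated signal carrier, fell in both genotypes, from 2081 to 1218 and from 1969.5 to 1312 (4.49e-05 and 0.000282). Smad2, its close relative, also fell in both, from 1219 to 901 and from 1153 to 837 (3.98e-05 and 1.47e-05). The inhibitory Smad7 was higher in LysMcre-labelled cells with G-CSF, at 1371 against 977 (adjusted p = 0.000174).

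Of 16 genes of JAK-STAT signalling, the pathway downstream of the G-CSF and gp130 receptors, 10 were higher and 3 lower in LysMcre-labelled cells with G-CSF. The median log2 difference was 0.52, and 17.1% of all genes were higher and 18.9% lower. Jak2, the kinase bound to CSF3R, rose from 2191 to 3489 in floxed and from 2255 to 6911 in LysMcre-labelled cells, a difference in response of 0.95 (SE 0.07, adjusted p = 5.42e-07). Stat5a stood at 869 and 1635 with G-CSF in floxed and LysMcre-labelled cells (2.55e-08), against 957 and 966 without it. Junb, an AP-1 subunit, stood at 22527 and 41239 with G-CSF (8.92e-07), against 3001 and 3278 without it. Bcl6, a repressor, was lower in LysMcre-labelled cells with G-CSF, at 4554 against 7178, and its response differed by −0.66 (SE 0.09, adjusted p = 9.77e-05).

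Vegfa differed little while 12 of 17 genes of the hypoxia and Vegfa regulation list were higher in LysMcre-labelled cells with G-CSF and 2 were lower. The median log2 difference was 0.40, and 17.1% of all genes were higher and 18.9% lower. Hif1a, the oxygen-regulated subunit of the factor, rose from 2235 to 11219.8 in floxed and from 2219.6 to 20346 in LysMcre-labelled cells (limma adjusted p = 1.24e-12 and 1.38e-14). Slc2a1, a glucose transporter gene and target of that factor, rose from 616 to 9371 and from 642 to 20744 (2.53e-15 and 1.12e-16). Egln3, a prolyl hydroxylase gene and another target, fell from 645 ± 37.2 to 383 ± 16.5 in floxed cells (3.04e-05) and stood at 651 ± 54.8 and 1208 ± 215 in LysMcre-labelled cells. Zfp36 and Zfp36l1, whose proteins destabilize AU-rich RNAs including that of Vegfa, rose in floxed cells from 5269 to 14581 and from 603 to 5106 (4.55e-11 and 5.74e-12). In LysMcre-labelled cells with G-CSF they stood at 19266 and 8648. Their relative Zfp36l2 moved the other way: it fell in LysMcre-labelled cells from 12026 to 8142 (limma adjusted p = 2.09e-05) and stood at 11431 and 12126 in floxed cells without and with G-CSF (0.422).

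The genes most like each member were named by Pearson's r of log2 levels over the 12 libraries among 9669 genes, as a description of libraries that fall into 4 groups. For Csf1 they were Arf2, Plekhm2, Bcor, N4bp2 and Bhlhe40 (r = 0.994 to 0.989). Bhlhe40, a transcription factor gene, stood at 753, 815, 1317 and 8876 in the order of groups above. The others differed less between floxed and LysMcre-labelled cells with G-CSF. Arf2 stood at 413 and 954, Plekhm2 at 977 and 1570, Bcor at 1154 and 2397, and N4bp2 at 1242 and 2161. Pearson's r does not measure the size of a difference. For Osm the most alike genes were Il10rb, Cux1, Qsox1, Il4ra and Cmas, each with r = 0.999. For Tgfb1 they were Arl4c, Slc37a2, Lamp1, B3galnt2 and Dapk1 (r = 0.972 to 0.963); Lamp1, a lysosomal membrane protein gene, stood at 5318, 5216, 4262 and 4770.3. For Vegfa they were Maz, Cnbd2, Srsf2, Mvd and Zwilch (r = 0.943 to 0.934), and the likeness was the weakest of the 4 members.

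Markers of other cells were present at low or moderate levels, and none of the listed markers in the table was at 0 in every library of a group. The summed monocyte and macrophage markers (11 of 12 in the table) ranged over 21332 to 22472 in floxed untreated, 20576 to 23132 in LysMcre-labelled untreated, 16614 to 20751 in floxed G-CSF and 14529 to 17895 in LysMcre-labelled G-CSF libraries, and the ranges of the G-CSF groups overlapped. B cell markers (7 of 7, mostly Ighm) ranged over 8553 to 12238, 11686 to 17680, 6759 to 10309 and 10039 to 16837, and so were higher with the LysMcre label. Progenitor markers (7 of 7) ranged over 7084 to 12375, 10257 to 10600.3, 11049 to 14429 and 13962 to 15365. Among them Kit stood at 783, 800.1, 2933 and 6166 in these groups, Mpo at 5047, 5487, 5968 and 4866, and Myb at 1715, 1556, 996 and 795. Stromal and endothelial markers (7 of 10 in the table), from cells known to make CSF1 and VEGF, summed to 140.1 to 387 over all 12 libraries. The part of B cells and progenitors in the differences of the 4 genes was not tested.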

How the data were processed

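RNA of 12 libraries of sorted mouse neutrophils was measured in 4 groups of 3. The deposited values are a signal: gene counts that the authors divided by 1 size factor per library, as read from the values, since whole reads were recovered for 100% of them at a tolerance of 0.01 read. Per the submitters' processing notes reads were placed on mm10. Which aligner, counter, annotation and strand setting the authors used is not given in these sources. Groups were taken from the titles, and for 3 libraries from the description; for LysMcre-labelled untreated replicate 2 the column says 3, and numbering follows the title. Libraries of a group differed beyond counting noise (chi-square per gene 3.55 to 12.87), and none was merged. The design assumed values that are not whole reads, so limma stayed the main test and count tests were alternatives.

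Values were taken as log2(value + 1), 20 genes with a mean under 10 were left out, and 1 limma 3.58.1 model (R 4.3.3; trended prior, 8 residual degrees of freedom) held the 4 groups. Its two-sided p-values were adjusted by Benjamini-Hochberg over 13915 genes. Ratios are of group means, and log2 differences and SEs come from the fit, which understates changes of low genes. Alternatives were edgeR 4.0.16 and DESeq2 1.42.0 on recovered reads, other scalings, pseudocounts of 0.5 and 5, a minimum mean of 50, no filter, only the groups compared, a replicate block and leaving out each library. The scripts were tested on simulated data. The 4 genes and all lists were chosen with earlier results of these data known. Named genes are the 4 members, their receptors, up to 6 genes per list with the largest log2 difference past 0.05 whose higher group averaged 50 or more, and the 5 genes most like each member.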

Additional observations from a re-analysis of the deposited data

Results flagged for a closer look

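For 38 genes of the lists the G-CSF response differed between genotypes by a test of the difference itself, the limma interaction term. The values below are the log2 response of LysMcre-labelled cells minus that of floxed cells. In the list of other ligands the values were 0.92 for Il27 and −0.79 for Hgf. For the receptors the values were 0.45 for Tgfbr2 and −0.91 for Lifr. In the release and latency list the values were 1.95 for Thbs1, 0.70 for Nrros, 0.54 for Adam17, 0.53 for Itgb1 and 0.51 for Furin. For TGF-beta signalling the values were 1.62 for Id1, 1.10 for Klf10, 0.65 for Tgif1, 0.40 for Ski, 0.40 for Smad7, 0.36 for Skil and −0.46 for Id2. For JAK-STAT signalling the values were 2.12 for Cish, 1.51 for Socs1, 0.95 for Jak2, 0.90 for Stat5a, 0.75 for Junb, 0.65 for Bcl3, 0.56 for Socs3, 0.56 for Pim1, 0.45 for Stat3, 0.30 for Jak1 and −0.66 for Bcl6. In the hypoxia and Vegfa regulation list the values were 2.59 for Ankrd37, 1.63 for Egln3, 1.09 for Slc2a1, 0.87 for Hif1a, 0.60 for Pdk1, 0.59 for Zfp36l1, 0.47 for Arnt, 0.38 for Pgk1, 0.36 for Egln1, 0.30 for Zfp36 and −0.65 for Zfp36l2. Under equal totals 21 of the 90 list genes passed this test upwards and 14 downwards. The median of all genes was then −0.18, against −0.01 with the deposited scaling. The share of all genes passing under equal totals is not given. Not all calls were stable among the genes followed through the alternatives. Skil, Jak1, Arnt, Pgk1 and Egln1 were not followed, so the stability of their calls is not given. The call of Ski was lost in 12 of 21 alternatives, that of Pdk1 in 10, Zfp36 in 8, Tgif1 in 5 and Smad7 in 4. Those of Tgfbr2 and Zfp36l1 were lost in 2, and those of Furin and Itgb1 in 1. Groups of 3 libraries were not tested for single outlying libraries.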

How the results depend on the processing

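The sign of a difference changed in 8 alternative values. These were the genotype difference of Osm and Tgfb1 without G-CSF (up to 0.035) and of Vegfa with G-CSF (up to 0.073), whose groups overlapped, and the difference of the Vegfa responses under equal totals. Of the alternative values, 421 of 436 log2 differences and 57 of 64 levels of the 4 genes moved by less than 1 SD between libraries. Many of these log2 differences could not move. The filters, the replicate block, fitting only the groups compared and leaving out a library of another group leave a group difference unchanged. Of the counts, 213 of 218 over all lists and 1254 of 1308 of single lists stayed within 1.5 times. Under equal totals the log2 differences were 0.60 (genotype with G-CSF), 2.06 and 2.65 (G-CSF in floxed and LysMcre-labelled cells) and 0.59 (interaction) for Osm; 0.079, −0.52, −0.48 and 0.044 for Tgfb1 in the same order; and 0.16 (G-CSF in LysMcre-labelled cells) and −0.066 (interaction) for Vegfa. Levels without and with G-CSF in LysMcre-labelled cells were then 861 and 5404 for Osm, 3079 and 2218 for Tgfb1, and 951 and 1060.2 for Vegfa, and Tgfb1 stood at 3005 in floxed untreated cells. Under quantile normalization Osm was at 0.61 (genotype with G-CSF), 2.77 (G-CSF in LysMcre-labelled cells) and 0.62 (interaction), and Tgfb1 at −0.32 and 0.15 in the latter pair. List counts moved under equal totals to 21 lower between genotypes with G-CSF and to 21 higher and 14 lower in the interaction, and under quantile normalization to 10 lower in the interaction. The median of all genes under equal totals stood at −0.13 between genotypes with G-CSF and −0.18 in the interaction. With the deposited scaling it stood at −0.01 in each. The cause of the moved counts was not tested. Leaving out each library gave 0 to 1 list genes higher between genotypes without G-CSF, the 1 being Socs3 without LysMcre-labelled untreated replicate 3. A gene at the level of 3 reads (2.57 to 3.54 normalized counts) limits what can be said of Flt1 and Kdr.

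The replicate numbers were not shown to pair the libraries: in no comparison did all 3 same-number correlations of deviations exceed 0.1, and every library correlated best with its own number only for G-CSF in floxed cells (0.445, 0.353 and 0.063). With the replicate number as a block, 0 and 0, 37 and 13, 35 and 25, 43 and 22, and 31 and 5 list genes were called higher and lower in the 5 contrasts. The log2 differences cannot change with this block, since each group holds every replicate number. That of Csf1 between genotypes with G-CSF was 3.00.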
